A study of Mus musculus with 6 samples.

Results

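The mitochondrial ribosomal protein genes studied here are the nuclear genes named Mrpl or Mrps with a number, for the large and the small subunit of the ribosome inside mitochondria. They were chosen by name, with earlier results of these data known. Rows of the array table annotated with a single such symbol were used: 69 rows for 68 genes, of 16700 rows in all. The samples were C2C12 myotubes, multinucleate muscle cells differentiated from a mouse myoblast line, infected with adenovirus that carried eGFP and a FLAG-tagged protein. In the ATF4 group (3 arrays) that protein was ATF4-FLAG, a basic leucine zipper transcription factor of the integrated stress response. In the control group (3 arrays) it was ATF4ΔbZIP-FLAG, which lacks the DNA-binding bZIP domain and was not tested here for effects of its own. Virus, eGFP and the FLAG tag were therefore common to both groups, no uninfected myotubes were analysed here, and RNA was collected 48 hours after infection. All values are transcript levels from 1 Affymetrix exon array per sample, read as log2, and a change is the ATF4 mean minus the control mean. The labels number the samples 1 to 3 in each group and do not state whether each was its own culture. Every p-value therefore reflects only how far these samples scattered, and that scatter may be technical.

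The mitochondrial ribosome translates the few mRNAs of the mitochondrial genome, which encode core subunits of the respiratory chain and of ATP synthase. Its RNAs are made in the organelle, whereas its proteins are encoded in the nucleus, made in the cytosol and imported. Some of these proteins descend from those of bacterial ribosomes and others are specific to mitochondria. Defects of mitochondrial translation are known to activate ATF4 in mammalian cells. The comparison here shows how the levels of these genes stood in myotubes that were given active ATF4.

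No mitochondrial ribosomal protein gene passed the test between ATF4 and control myotubes, and most differences were small. Of 69 rows, 0 passed a limma adjusted p of 0.05, where 0.593% of all rows passed (95 higher and 4 lower with ATF4). With the sample number as a block, which pairs arrays of the same number, 0 of 69 passed again, where 3.56% of all rows passed. At an unadjusted p below 0.05 the fit without the block held 1 member (Mrpl14), against 5.26% of all rows. The fit with the block held 4 (Mrpl14, Mrpl16, Mrps25 and Mrps34), against 17.7% of all rows. After cyclic loess, a normalization described below, the limma fit with the block held 12 members at this limit. The share of all rows for that setting is not given here, so the 12 have no comparison.

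The precision of the arrays bounds what could have been missed. The 95% interval of the change lay wholly within 2-fold in either direction for 67 of 69 rows, and wholly within 1.5-fold for 39. The exceptions at 2-fold were Mrpl22, with an interval of -1.08 to 0.71, and Mrpl45, with -1.02 to 0.62. With the block, 69 of 69 intervals lay within 2-fold and 64 within 1.5-fold. Each interval covers its own row only.

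The changes leaned to lower values in ATF4 myotubes by a small amount. The mean was lower with ATF4 for 48 rows, higher for 20 and equal for 1 (Mrps18a), so 69.6% were lower, against 58.3% of all rows. The median change was -0.07, with quartiles of -0.16 and 0.02, against a median of -0.03 over all rows. Leaving out control 2 turned the median to 0.01, and leaving out ATF4 3 brought it to -0.0008, but either step leaves the sample numbers unbalanced. Leaving out both arrays of number 1, 2 or 3 gave -0.07, -0.03 and -0.09, against -0.04, -0.04 and -0.02 over all rows. Within sample numbers 1, 2 and 3 the median difference was -0.06, -0.10 and 0.02, and 43, 50 and 33 of the 69 rows were lower with ATF4. Over all rows these medians were -0.02, -0.03 and -0.05. Over rows above the median brightness, where 66 of the 69 members lie, they were -0.02, -0.04 and 0.05. Among those bright rows 51.7% had a lower mean with ATF4. In number 3 the member median was thus above that of all rows but below that of the bright rows. In all 3 numbers, 18 rows were lower with ATF4, where 24.5% of all rows were, and 6 were higher (Mrpl14, Mrpl16, Mrpl46, Mrpl35, Mrpl13 and Mrps14), where 17% of all rows were. The groups did not overlap for 5 rows: Mrpl14 was higher in ATF4, where 4.5% of all rows did this, and Mrpl2, Mrpl12, Mrpl43 and Mrps24 were lower, where 4.62% of all rows did this.

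**Figure D1:**
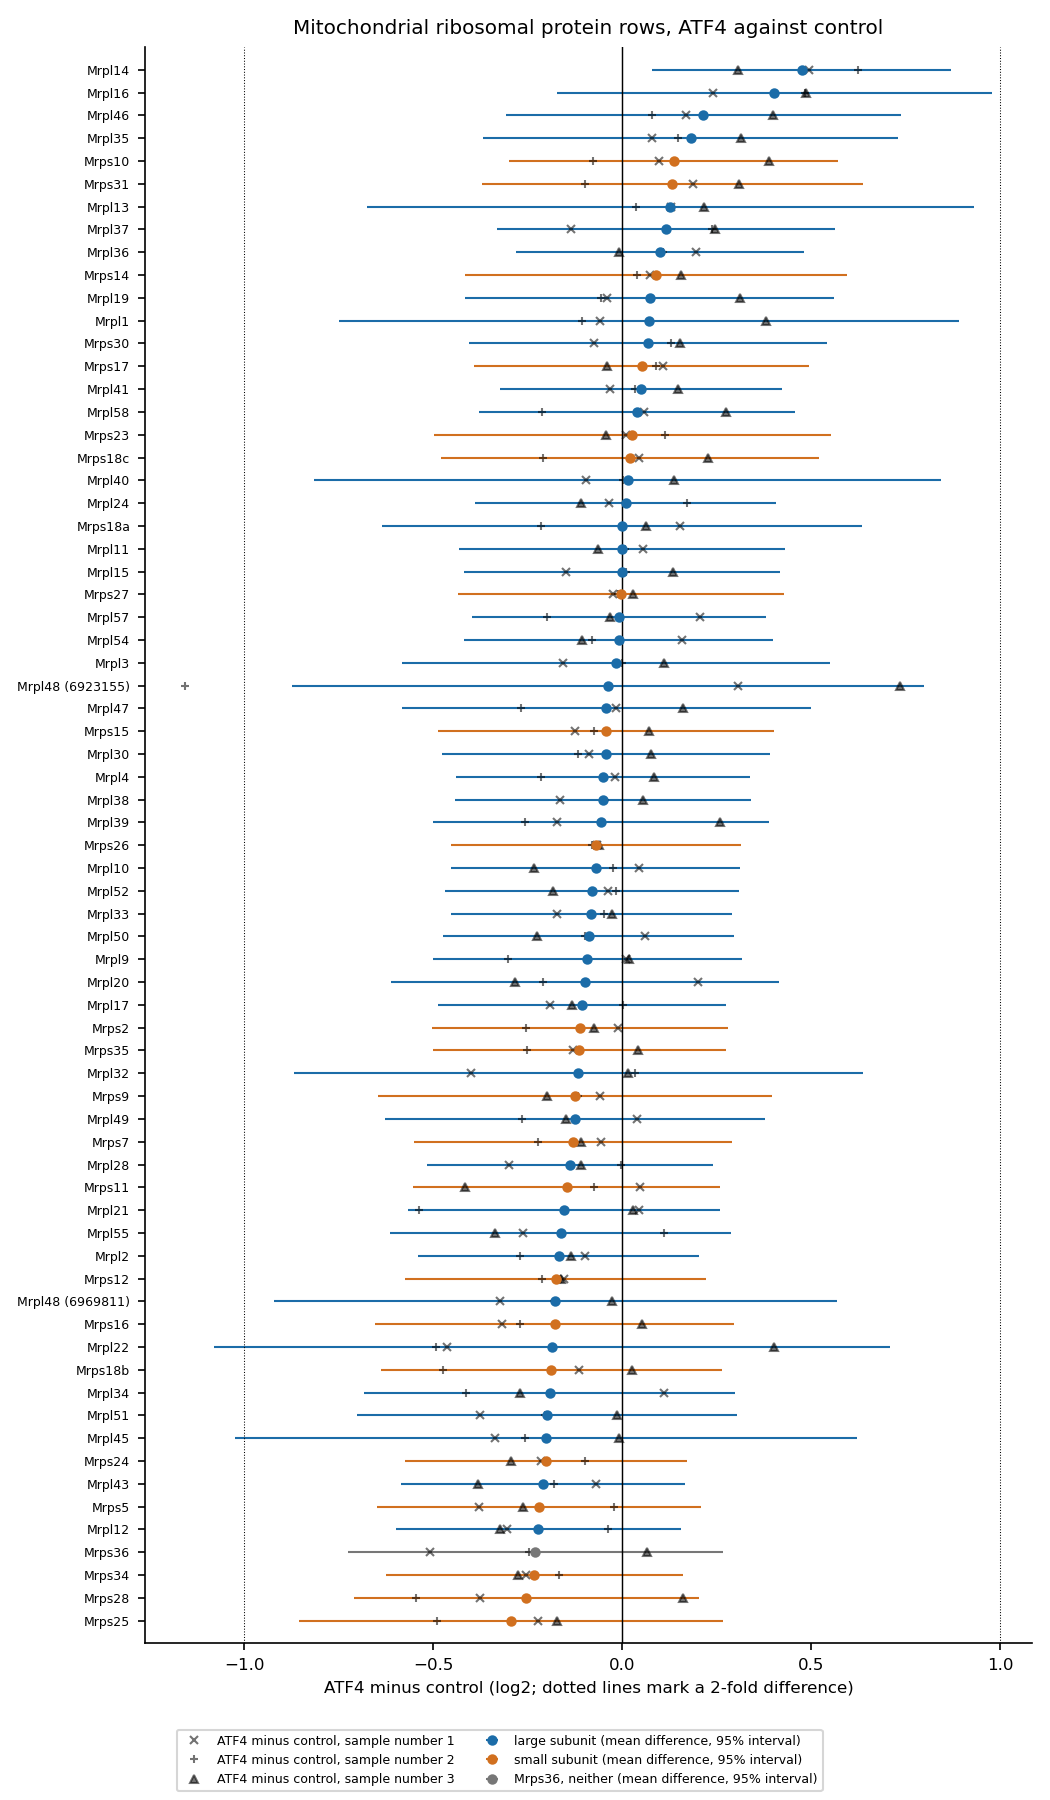
Change of each of the 69 mitochondrial ribosomal protein rows, ATF4 minus control on the log2 axis; filled circles are differences of means with 95% limma intervals (3 arrays a group), coloured by subunit, and the small marks are the differences within sample numbers 1, 2 and 3. Mrpl14 at 0.47 and Mrps25 at -0.30 are the ends of the range, and the intervals of 67 rows lie between the dotted lines at 2-fold.

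Mrpl14 showed the largest difference, and it encodes the large subunit protein that binds the assembly factor Malsu1 in the human ribosome. Its level (transcript cluster 6850661) was 8.69, 8.39 and 8.69 in the control arrays and 9.19, 9.02 and 8.996 in the ATF4 arrays. Every ATF4 array thus lay above every control array, and the difference had the same sign in each sample number. The change was 0.47 (SE 0.18, 95% interval 0.08 to 0.87), or 1.39-fold, with a limma adjusted p of 0.655. With the block the interval was 0.24 to 0.71 and the limma adjusted p 0.0638, the lowest of any member.

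Mrpl16 encodes a large subunit protein of bacterial descent that lies near the tRNA sites. Its level was 8.07, 8.09 and 7.36 in control and 8.31, 8.58 and 7.84 in ATF4 arrays. The groups overlapped because the number 3 array of each group was its lowest, but each ATF4 array was above the control array of its number. Mrpl16 had a change of 0.40 (SE 0.26) and a limma adjusted p of 1, or 0.0886 with the block. The next highest values were 0.21 for Mrpl46 and 0.18 for Mrpl35, both large subunit proteins, with limma adjusted p of 1 for each.

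At the other end, Mrps25, a small subunit protein specific to mitochondria, was measured at 8.09, 8.51 and 7.62 in control and 7.87, 8.02 and 7.45 in ATF4 arrays. The ATF4 array was the lower one in each number, while the groups overlapped. Its change was -0.30 (SE 0.25), with a limma adjusted p of 1, or 0.202 with the block. Mrps34, another mitochondria-specific small subunit protein, had 8.04, 7.99 and 7.83 against 7.79, 7.83 and 7.55, a change of -0.23 (SE 0.18) with a limma adjusted p of 1, or 0.221 with the block.

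The promoters of Mrpl14, Mrpl16 and Mrps25 are printed because these rows stood at the ends of the range, and that of Asns, the asparagine synthetase gene, because it is a known ATF4 target that changed on these arrays. Asns was measured at 9.05, 8.33 and 7.99 in control and 10.68, 10.56 and 10.26 in ATF4 arrays. Its change was 2.04 (SE 0.27), or 4.12-fold, with a limma adjusted p of 0.00646. Each window runs from 250 bases before to 50 bases after the annotated start, 5′ to 3′ on the gene's strand, from RefSeq on GRCm38.p6. Capitals mark a match on either strand to the motif named here. The Mrpl14 window (chr17:45686099-45686398, plus strand) holds the NRF1 core, which is GCGCA and GCGC with any 1 base between them, NRF1 being a factor that drives many nuclear genes for mitochondria. The Mrpl16 window (chr19:11770165-11770464, plus strand) holds the cAMP response element TGACGTCA, which CREB and ATF proteins bind. The Mrps25 window (chr6:92183974-92184273, minus strand) holds none of the 5 motifs searched, and the Asns window (chr6:7693160-7693459, minus strand) holds TGATGNAA, the composite element bound by ATF4 with a C/EBP protein.
Mrpl14: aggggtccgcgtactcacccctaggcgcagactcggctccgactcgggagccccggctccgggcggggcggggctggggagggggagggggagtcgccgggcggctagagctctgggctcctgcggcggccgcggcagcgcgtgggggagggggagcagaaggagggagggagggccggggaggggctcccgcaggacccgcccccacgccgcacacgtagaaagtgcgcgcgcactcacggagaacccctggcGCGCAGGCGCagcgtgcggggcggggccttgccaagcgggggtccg
Mrpl16: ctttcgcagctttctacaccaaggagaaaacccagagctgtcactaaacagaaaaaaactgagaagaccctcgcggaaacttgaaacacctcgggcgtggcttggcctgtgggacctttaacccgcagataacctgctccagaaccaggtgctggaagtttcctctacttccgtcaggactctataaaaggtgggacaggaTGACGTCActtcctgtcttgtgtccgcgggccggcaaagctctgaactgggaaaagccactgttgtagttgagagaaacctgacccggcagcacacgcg
Mrps25: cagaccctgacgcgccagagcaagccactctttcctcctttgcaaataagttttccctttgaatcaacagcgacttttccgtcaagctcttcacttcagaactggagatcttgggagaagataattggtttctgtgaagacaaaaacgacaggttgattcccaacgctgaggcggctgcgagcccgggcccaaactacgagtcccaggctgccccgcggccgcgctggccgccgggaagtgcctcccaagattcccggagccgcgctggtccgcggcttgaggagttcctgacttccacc
Asns: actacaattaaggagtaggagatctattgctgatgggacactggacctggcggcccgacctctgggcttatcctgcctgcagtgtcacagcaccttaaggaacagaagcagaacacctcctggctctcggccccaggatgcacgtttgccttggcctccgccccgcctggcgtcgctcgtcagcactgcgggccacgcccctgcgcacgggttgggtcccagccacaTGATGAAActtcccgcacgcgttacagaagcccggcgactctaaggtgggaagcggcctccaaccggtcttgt

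Promoter windows were at hand for 59 of the 68 genes, and the same 5 motifs were counted on both strands. TGATGNAA stood in 0 of 59 windows, where 4.51% of 27025 genes with a window had it. TGACGTCA stood in 2 of 59 (Mrpl16 and Mrpl49), or 3.39%, where 2.03% of all genes had it. The ETS motif CCGGAAG, bound by the GABP factor, stood in 20 of 59, or 33.9%, against 9.93% of all genes. The NRF1 core was found in 11 of 59, or 18.6%, against 5.19%, and the YY1 motif AAGATGGC in 11 of 59, or 18.6%, against 3.19%. These counts describe letters in short windows, they were not tested, and a window with no match says nothing about binding of the factor.

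The large subunit, which holds the peptidyl transferase centre, was represented by 46 rows for 45 genes. Mrps30 and Mrps18a are counted in it, since both proteins sit in the large subunit despite their names. The median change of these rows was -0.05, and their range ran from the -0.22 of Mrpl12 to the 0.47 of Mrpl14. By descent, the 27 rows with a bacterial homologue had a median of -0.05 and the 19 mitochondria-specific rows one of -0.04. The subunit thus had small differences of both signs around a median close to that of all rows.

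Mrpl12, the protein of the flexible stalk that recruits translation factors and one known in human cells to bind the mitochondrial RNA polymerase, was at 8.24, 8.01 and 8.26 in control and 7.94, 7.98 and 7.93 in ATF4 arrays. The groups did not overlap, although control 2 lay only just above the ATF4 arrays. Its change was -0.22 (SE 0.17) with a limma adjusted p of 1, or 0.308 with the block. Mrpl11, of the stalk base, had nearly equal means, with 9.14, 9.10 and 8.81 against 9.19, 9.10 and 8.75 and a change of -0.00 (SE 0.19). Mrpl3, near the peptidyl transferase centre, had a change of -0.02 (SE 0.25).

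Mrpl32 is a large subunit protein that, in mouse and yeast, is cut by the m-AAA protease before it is assembled. It was at 6.90, 7.05 and 5.94 in control and 6.50, 7.09 and 5.96 in ATF4 arrays, so both groups dropped at number 3 and their ranges were nearly the same. Its change was -0.12 (SE 0.34). Mrpl43, a mitochondria-specific protein, had groups that did not overlap, with 7.18, 7.33 and 7.35 against 7.12, 7.15 and 6.97 and a change of -0.21 (SE 0.17). Mrpl2, of the peptidyl transferase region, likewise had 7.25, 7.28 and 7.16 against 7.15, 7.02 and 7.02, a change of -0.17 (SE 0.17). Mrpl37 and Mrpl13 had changes of 0.12 and 0.13.

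The small subunit, which decodes the mRNA, was represented by 22 rows, 1 for each gene. Their median change was -0.12, with -0.13 for the 14 rows with a bacterial homologue and -0.09 for the 8 mitochondria-specific rows. Over all rows the median was -0.03, and over rows above the median brightness -0.01. With ATF4, 9 of the 22 rows were lower in all 3 numbers, or 40.9%, where 24.5% of all rows were. Higher in all 3 numbers was 1 row, or 4.55%, where 17% of all rows were. The difference between the subunits was not tested. Mrps12, the protein of the decoding centre, was at 8.77, 8.58 and 8.83 in control and 8.61, 8.37 and 8.67 in ATF4 arrays. It was lower with ATF4 in each number by a similar amount, with a change of -0.18 (SE 0.18) and a limma adjusted p of 1, or 0.326 with the block.

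Mrps24 was at 7.72, 7.70 and 7.88 against 7.51, 7.60 and 7.59, so its groups did not overlap, and its change was -0.20 (SE 0.17). Mrps28 had 8.37, 8.31 and 7.78 in control and 7.997, 7.77 and 7.94 in ATF4 arrays. Here numbers 1 and 2 were lower with ATF4 and number 3 higher, and the change was -0.25 (SE 0.21). Mrps5, a protein of the mRNA entrance, had a change of -0.22 (SE 0.19), and the positive end of the subunit was Mrps10 at 0.14 and Mrps31 at 0.13. All of these had a limma adjusted p of 1.

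The Mrps18 paralogs form a natural comparison, since in mammals 3 genes descend from 1 bacterial small subunit protein and each product takes its own place. Mrps18a, in the large subunit, was at 8.63, 8.80 and 7.88 in control and 8.78, 8.59 and 7.95 in ATF4 arrays, a change of 0.00 (SE 0.29). Mrps18b, in the small subunit, was at 6.69, 6.68 and 6.22 against 6.58, 6.21 and 6.25, a change of -0.19 (SE 0.20). Mrps18c, at the place of the bacterial protein, was at 10.69, 10.25 and 10.30 against 10.74, 10.04 and 10.53, a change of 0.02 (SE 0.23). None of the 3 paralogs had groups that stood apart, and all had a limma adjusted p of 1.

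**Figure D2:**
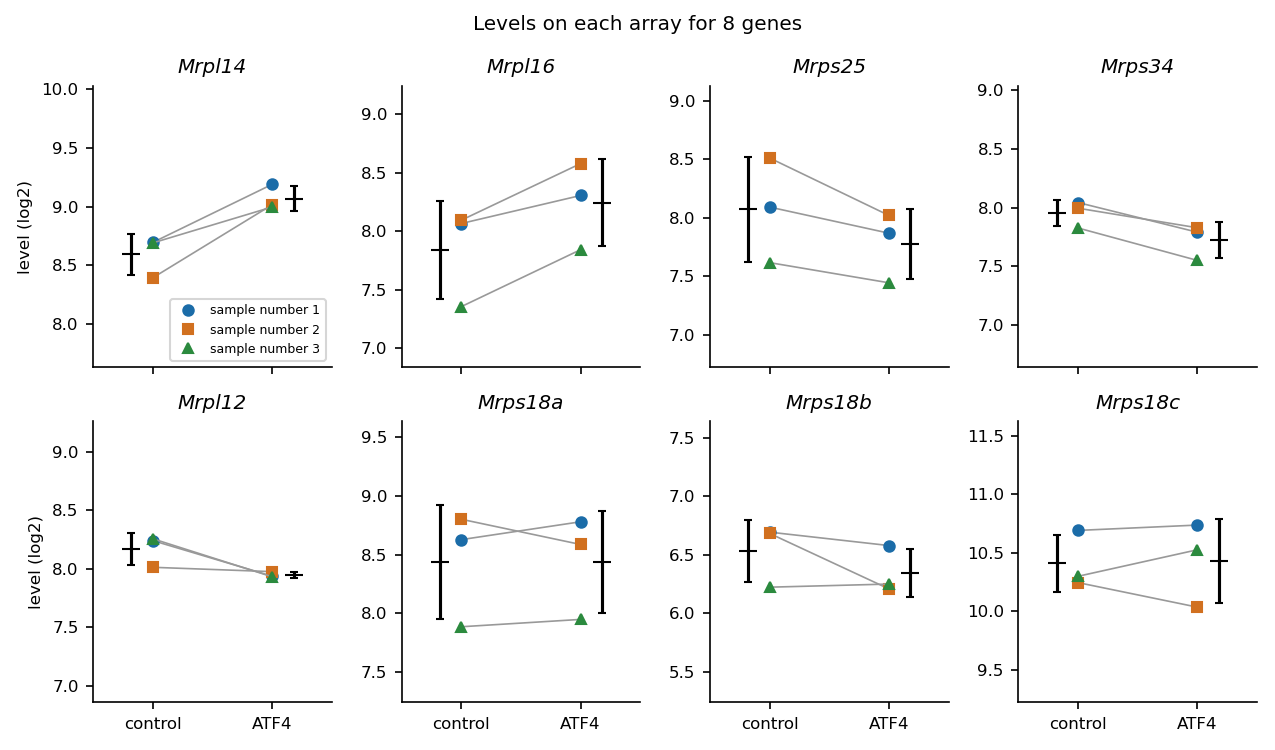
Level (log2) of 8 mitochondrial ribosomal protein genes on each of the 6 arrays; marks give the sample number, grey lines join arrays of the same number, and black bars are the mean ± SD of the 3 arrays of a group. The ATF4 arrays of Mrpl14 (8.996 to 9.19) all lie above its control arrays (8.39 to 8.69), and in Mrpl16, Mrps25 and Mrps18a the number 3 array is the lowest of each group.

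Mrps36 belongs to neither subunit count, because its product is now regarded as a part of the alpha-ketoglutarate dehydrogenase complex. It was at 7.96, 7.47 and 7.83 in control and 7.45, 7.22 and 7.89 in ATF4 arrays, with a change of -0.23 (SE 0.22). Mrpl48 had a pair of rows. The brighter one (6969811) was at 9.70, 9.81 and 8.67 against 9.37, 9.63 and 8.64, a change of -0.18 (SE 0.34). The dim one (6923155) was at 2.68, 4.18 and 2.45 against 2.99, 3.02 and 3.19, a change of -0.04 (SE 0.38). The dim row stands among array rows of chromosome 4 genes, where RefSeq lists the pseudogene Mrpl48-ps, whereas Mrpl48 itself is on chromosome 7, so which transcript it measures is uncertain.

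Coverage of the family was nearly whole. RefSeq lists 78 protein-coding Mrpl and Mrps genes, of which 68 had their own row, 3 shared a row with another gene and 7 had no row used here (Mrpl18, Mrpl23, Mrpl27, Mrpl42, Mrpl44, Mrps21 and Mrps33). The shared rows cannot be assigned to 1 gene. That of Mrps6 and Slc5a3 had a change of -0.08, that of Mrps22 and Capza1 one of -0.11, and that of Mrpl53 and Ccdc142 one of -0.28, each with a limma adjusted p of 1. The last had groups that did not overlap, with 6.49, 6.73 and 6.68 in control and 6.42, 6.26 and 6.37 in ATF4 arrays. Of the 69 rows, 66 were brighter than the median row of the array. The exceptions were Mrps27, Mrpl17 and the dim Mrpl48 row.

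More of these rows passed a test for the sample number than one for ATF4. In a limma F-test of the number in the fit that held the group and the number, 28 of 69 rows passed an adjusted p of 0.05, where 43.1% of all rows passed. All 28 were lower on the number 3 arrays than on the mean of numbers 1 and 2, where 18.6% of all rows passed in this direction, and 0 were higher, where 24.6% of all rows were. The median difference was -0.26, against 0.14 over all rows, and 53 of the 69 rows were lower at number 3. For Mrps18c the difference was only -0.01, since its number 1 arrays were the highest of each group. What a number marks is not given in the sources used here, so a culture, a day or an array batch cannot be told apart.

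The largest number differences came from large subunit genes. Mrpl22, of the exit tunnel, was at 6.90, 7.24 and 5.49 in control and 6.44, 6.75 and 5.89 in ATF4 arrays, so number 3 was 1.14 below the others (-1.14). Mrpl40 was at 7.97, 8.26 and 6.92 against 7.87, 8.27 and 7.06, a difference of -1.10. Mrpl1, of the stalk that guides tRNA release, was at 7.63, 7.99 and 6.51 against 7.57, 7.89 and 6.89, a difference of -1.07. In each of these genes the 2 lowest arrays were the number 3 arrays of both groups, and Mrpl13, Mrpl48, Mrpl32 and Mrpl45 followed with -1.01, -0.98, -0.94 and -0.86. Mrpl30 went the other way without passing, with 8.68, 8.76 and 8.99 in control and 8.60, 8.64 and 9.06 in ATF4 arrays, a difference of 0.35.

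Brightness moved with this difference over the whole array. The interquartile range of the number 3 arrays was 1.63 in control and 1.80 in ATF4, against 2.19 to 2.28 in the other 4 arrays, so bright rows were lower and dim rows higher on them. Among rows above the median brightness, 33% passed in the lower direction. With rows ordered by brightness into 10 equal deciles, deciles 7, 8, 9 and 10 had median differences of -0.02, -0.20, -0.35 and -0.37 over all rows. The member rows there (9, 15, 24 and 16) had medians of -0.30, -0.16, -0.32 and -0.20. These were smaller in size than the medians of all rows in deciles 8 to 10 and larger in decile 7, which held few members, Mrpl22, Mrpl32 and Mrpl45 among them.

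**Figure D3:**
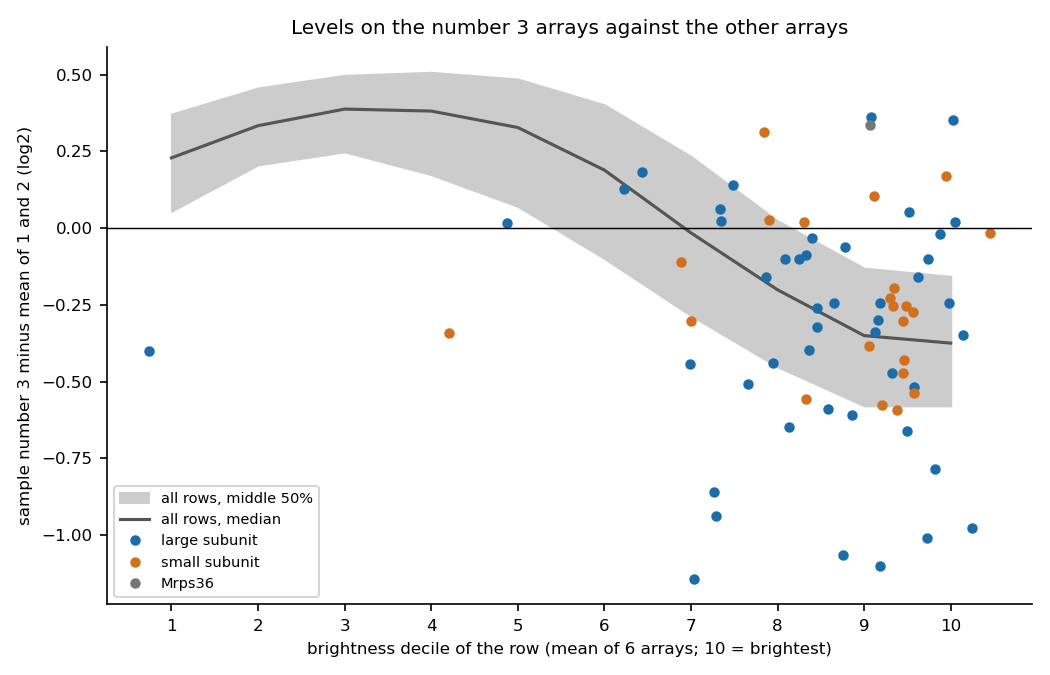
Level on the number 3 arrays minus the mean of numbers 1 and 2 (log2), against the brightness of the row in deciles of all 16700 rows; the line and band are the median and quartiles of all rows and the points are the 69 mitochondrial ribosomal protein rows. The line falls from above 0 in dim rows to -0.37 in the brightest decile. Most points lie in the bright deciles, and Mrpl22, Mrpl40, Mrpl1 and Mrpl13 lie below -1.

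After cyclic loess, which evens out differences between arrays linked to brightness, the number effect lost its single direction. Then 14 member rows passed, or 20.3%, where 13.9% of all rows passed. Lower at number 3 were 10 (Mrpl1, Mrpl3, Mrpl13, Mrpl22, Mrpl32, Mrpl40, Mrpl45, Mrpl48, Mrps27 and Mrps30), where 9.2% of all rows were. Higher were 4 (Mrpl30, Mrps12, Mrps18c and Mrps36), where 4.72% of all rows were. The member median was -0.00. Quantile normalization gave 9 lower and 4 higher, scaling to one spread 11 lower and 5 higher, and median centring 36 lower and 0 higher. The shares of members passing were 18.8%, 23.2% and 52.2%, against 13.6%, 25.8% and 33.6% of all rows. Mrpl22 kept a difference of -1.14 under cyclic loess, with a limma adjusted p of 0.0411, and Mrpl40 one of -0.77, with 0.0219. Genes of both subunits, like other rows of the array, thus still differed by number after cyclic loess, and the cause was not tested.

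Other genes of mitochondrial translation gave the same picture between ATF4 and control, with 0 rows passing in any list without the block. Of the ribosomal proteins under other names, 3 of 7 listed symbols had a row, with changes of -0.12 for Chchd1, 0.02 for Ptcd3 and 0.14 for Gadd45gip1. The symbols without a row include Ict1 and Mrp63, older names of the measured members Mrpl58 and Mrpl57. The 13 translation factors, of which Tufm had a very dim row at 2.27 to 2.92, had a median of 0.06. The 2 with the smallest p were the peptide release factors Mtrf1l, at 0.35 with a limma adjusted p of 1 (0.149 with the block), and Mtrf1, at -0.22 with 1 (0.489 with the block). Of the 17 mitochondrial tRNA synthetases 15 had a row, with a median of -0.08.

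Rars2, the mitochondrial arginyl-tRNA synthetase, was the synthetase that differed most. It was at 7.32, 7.54 and 6.65 in control and 7.84, 7.95 and 7.45 in ATF4 arrays, higher with ATF4 in each number. Its change was 0.58 (SE 0.25), with a limma adjusted p of 0.892, and it passed only with the block, at 0.0471. Mterf3, which acts in mitochondrial transcription and in assembly of the large subunit, was alike, with 7.36, 7.57 and 6.61 against 7.78, 8.25 and 7.18. Its change was 0.56 (SE 0.31), with a limma adjusted p of 1, or 0.0357 with the block.

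Mterf3 was the 1 gene of the 20 measured for ribosome assembly and rRNA modification that passed with the block, and their median change was 0.00. The m-AAA protease subunit Afg3l2 stood at 0.45 (limma adjusted p 0.89, or 0.061 with the block) and Mterf4, which guides an rRNA methyltransferase, at -0.43 (1, or 0.072 with the block). Of the genes for upkeep and transcription of mitochondrial DNA, 9 had a row, with a median of -0.06, and 0 passed in either fit. The 14 symbols listed for them include older names of measured genes, Peo1 for Twnk and Mterfd3 for Mterf2. The lowest p belonged to Top1mt, the mitochondrial topoisomerase, at -0.26, and Polg2, the accessory subunit of the DNA polymerase, at -0.19.

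The nuclear regulators of such genes had 9 of 9 members measured, a median change of 0.04 and 0 passing in either fit. Ppargc1a, the coactivator PGC-1alpha that drives formation of mitochondria, was at 4.68, 5.51 and 4.75 in control and 4.48, 4.36 and 4.46 in ATF4 arrays. Its groups did not overlap, with control 2 well above the others. The change was -0.55 (SE 0.23), with a limma adjusted p of 0.858, or 0.225 with the block. Esrra, the nuclear receptor ERRalpha that works with it, had a change of -0.20 (SE 0.21).

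**Figure D4:**
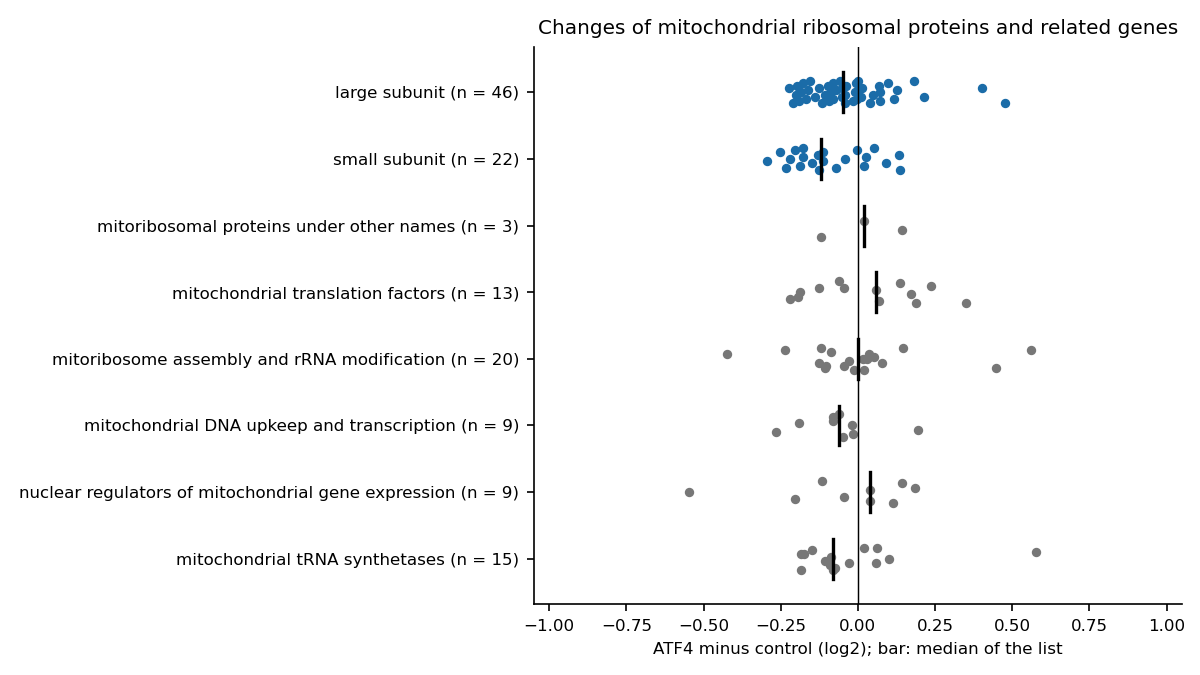
Change of each measured gene (ATF4 minus control, log2) in the mitochondrial ribosomal protein subunits and in the other lists of mitochondrial translation and its regulation, 1 point a gene (1 a row for the subunits) with a bar at the list's median. Medians lie between -0.12 (small subunit) and 0.06 (translation factors), against -0.03 over all rows, and Rars2 (0.58), Mterf3 (0.56) and Ppargc1a (-0.55) are at the outer ends.

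Cell type markers were read beside these values. All 10 measured myotube markers were brighter than the median row, and all 10 had lower means in ATF4 myotubes, with a median change of -0.28. Their mean level was 8.19 to 8.74 in control and 8.04 to 8.43 in ATF4 arrays, and 1 of them (Cav3) passed, with the block only, at a limma adjusted p of 0.042. Markers of proliferating myoblasts were lower in 5 of 6, with a median of -0.24, and the 6 fibroblast markers had a median of 0.08. None of the 6 measured leukocyte markers was brighter than the median row, and their mean level was 4.82 to 5.38 in control and 5.12 to 5.31 in ATF4 arrays. With ATF4, 3 of them had higher means and 3 lower, and 0 passed in either fit. Ptprc changed by 0.75 and Cd14 by 0.79, both with groups that did not overlap, while Cd68 changed by -0.35. The part of these shifts in the values of the mitochondrial ribosomal protein genes was not tested, and in bulk samples fewer cells of a type and less RNA per cell cannot be told apart.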

How the data were processed

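The deposited table gives, for each array, a value at 16700 transcript clusters, taken as log2 from their range. GCOS, RMA and mm9 are listed in the submitters' processing notes, and the sources used here do not give versions or filters. Per the labels' protocols, TRIzol RNA was amplified with a NuGEN kit and labelled with biotin. The supplied platform annotation gave 14988 rows 1 symbol, 1018 several and 694 none.

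limma 3.58.1 in R 4.3.3 (lmFit, eBayes, unfiltered) was fitted to all rows, with two-sided p-values adjusted by Benjamini-Hochberg over 16700 rows and a threshold of 0.05. SEs and 95% intervals come from that fit, on 4 residual and 6.3 prior degrees of freedom, or 2 and 3.77 with the sample number as a block. For 3 against 3 arrays the smallest two-sided p of an exact permutation test is 0.1. Deviations from the group mean correlated by 0.578, 0.636 and 0.782 between same-numbered arrays, each above 0.1, and by -0.666 to 0.221 between others, so the numbers in the titles were read as pairs. The fits were tested on simulated data.

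Members and lists were chosen with earlier results of these data known. Genes named were members past the threshold, the 8 largest changes each way, members with a distinct role and, per list, up to 3 that passed or the 2 with the smallest p. Named beyond this rule, after their values were seen, were members with groups that did not overlap or with large number differences. So were Afg3l2, Mterf4, Ptcd3, Tufm, Cav3, Ptprc, Cd14, Cd68, Asns, Vegfa and Tmem63b. A list's gene with several rows kept its brightest. Alternatives were other normalizations, brightness filters, eBayes options, array weights, arrays left out and other thresholds. The number of arrays limits the precision.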

Additional observations from a re-analysis of the deposited data

How the results depend on the processing

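No mitochondrial ribosomal protein row passed under any of the 23 alternatives. The replicate block was among these alone and with cyclic loess, and it was not combined with the others. The median change stayed within the spread between arrays, from -0.14 without control 3 to 0.01 without control 2. Of the 24 members named by the rule, 11 changed sign under at least 1 alternative, in 37 values and none of them past the threshold. Mrps18a is not among the 11, because its change was 0 as deposited, but it ranged from -0.28 to 0.25 over the alternatives. Rars2 and Mterf3 passed with the block and with cyclic loess and the block together. The block, which pairs the arrays by number, changed no call among the members.

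Over all rows the count passed was 99 and moved with the setting: 594 with the replicate block, 57 after median centring, 151 after cyclic loess, 616 after cyclic loess with the block, 561 with array weights and 41 at an adjusted p below 0.01. Leaving out single arrays gave 38 to 243, and leaving out both arrays of number 1, 2 or 3 gave 8, 41 and 157. The number effect on members (28 rows) was 13 after quantile normalization, 16 after scaling, 14 after cyclic loess and 0 at an adjusted p below 0.01, a limit that 0 rows of the array passed. Over all rows the shares passing were 43.1% as deposited, 13.6% after quantile normalization, 25.8% after scaling and 13.9% after cyclic loess. Apart from fewer arrays or a stricter limit, the cause was not tested. No detection calls were used, so a change in a dim row may be understated.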

Other observations

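Among the neighbours of Mrpl14 on chromosome 17, in RefSeq's gene order on GRCm38.p6, Vegfa, which encodes the blood vessel growth factor VEGF-A, lies 2 genes further on. It was singled out after its values were seen. Vegfa was at 8.44, 8.39 and 8.24 in control and 8.85, 8.71 and 8.94 in ATF4 arrays, with groups that did not overlap. Its change was 0.48, next to 0.47 for Mrpl14, with a limma adjusted p of 0.58, or 0.079 with the block. Tmem63b, on the other side of Mrpl14, had a change of -0.04. Mrps18a and Mrpl2, members on the same stretch of that chromosome, had changes of 0.00 and -0.17.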
